A study of Cucumis sativus with 18 samples.

Results

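Embryos of cucumber (Cucumis sativus) after 30 days of ovary culture were compared with fresh unpollinated ovaries, the material from which the culture starts. The comparison rests on 6 of the 18 RNA-seq libraries of the series, 3 of day 30 embryos and 3 of fresh ovaries, chosen by their time label alone. The other libraries come from ovules at day 2 and from embryos at day 10, day 20 and day 60, with 3 libraries each, and they share the estimate of the spread. The labels give ovary as the tissue of every library and name no cultivar, culture medium, treatment, age or donor plant, so whatever else the plants of both groups share is not stated there. What was sampled, embryos against whole ovaries, and the time of culture differ together and cannot be told apart. Of 23248 genes in the files, 18153 reached an RPKM (a read count scaled to gene length in kilobases and to mega-reads of library depth) of at least 1 in 3 or more of the 18 libraries and were tested, and 17005 of these did so within the 6 libraries compared. The remaining 5095 genes were not tested, and 2049 of them were at 0 in all 6 libraries.

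In ovary culture, unpollinated ovaries or the ovules in them are placed on a nutrient medium, where cells of the unfertilised embryo sac, or cells of the maternal tissue around it, can be induced to divide and form embryos. Embryos from the embryo sac can be haploid and are used to breed pure lines, while those from maternal tissue carry the maternal genotype. A fresh ovary is a mixed organ that holds ovules, placenta and the wall that would become the fruit. The genes are given by their IDs, since none of the IDs matched an entry of the RefSeq gene table, so their roles are not stated and the marker genes of embryo or ovary tissue could not be looked up.

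The day 30 libraries held 28.0 to 71.0 mega-reads (M) assigned to genes and the fresh libraries 29.6 to 62.8 M, worked out from the steps of the RPKM values, and at all 6 times the replicate 3 library was the deepest. The series calls the replicates biological without saying what separates them, so the p-values measure the spread between these libraries. Across genes, libraries of the same group correlated at a Pearson r of 0.978 to 0.986 at day 30 and of 0.982 to 0.987 in fresh ovaries, on log2(RPKM + 1). An RPKM of at least 1 was seen for 16589, 16601 and 16759 genes in the day 30 libraries and for 15953, 15753 and 15835 genes in the fresh libraries.

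The net change between fresh ovaries and day 30 reached most genes and most of the changes were small. Relative to fresh ovaries, 6503 genes were higher at day 30, which is 35.8% of the genes tested, and 4797 were lower, which is 26.4%, together 62.2% (limma, Benjamini-Hochberg adjusted p under 0.05). A change of at least 2-fold on the log2(RPKM + 1) scale was called for 2763 higher genes, 15.2%, and for 1814 lower genes, 9.99%. Of the rises, 813 were at least 4-fold, 132 at least 16-fold and 20 at least 64-fold, against 369, 28 and 1 of the falls. Tested against a 2-fold change, 1504 genes passed as higher, 8.29%, and 817 as lower, 4.5%, together 12.8%. The 3 libraries of each group did not overlap for 12811 genes, 70.6%, of which 40.3% of the genes tested were higher at day 30 and 30.3% lower. The share of rises among all called genes was 57.5%, but 50.7% when the libraries were scaled by median ratios, so the excess of rises among all changes depends on the scaling. Among genes changed at least 2-fold that share was 60.4%, and 54.0% under median-ratio scaling. RNA of bulk samples was measured, in which fewer cells of a type and less RNA per cell cannot be told apart.

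**Figure D1:**
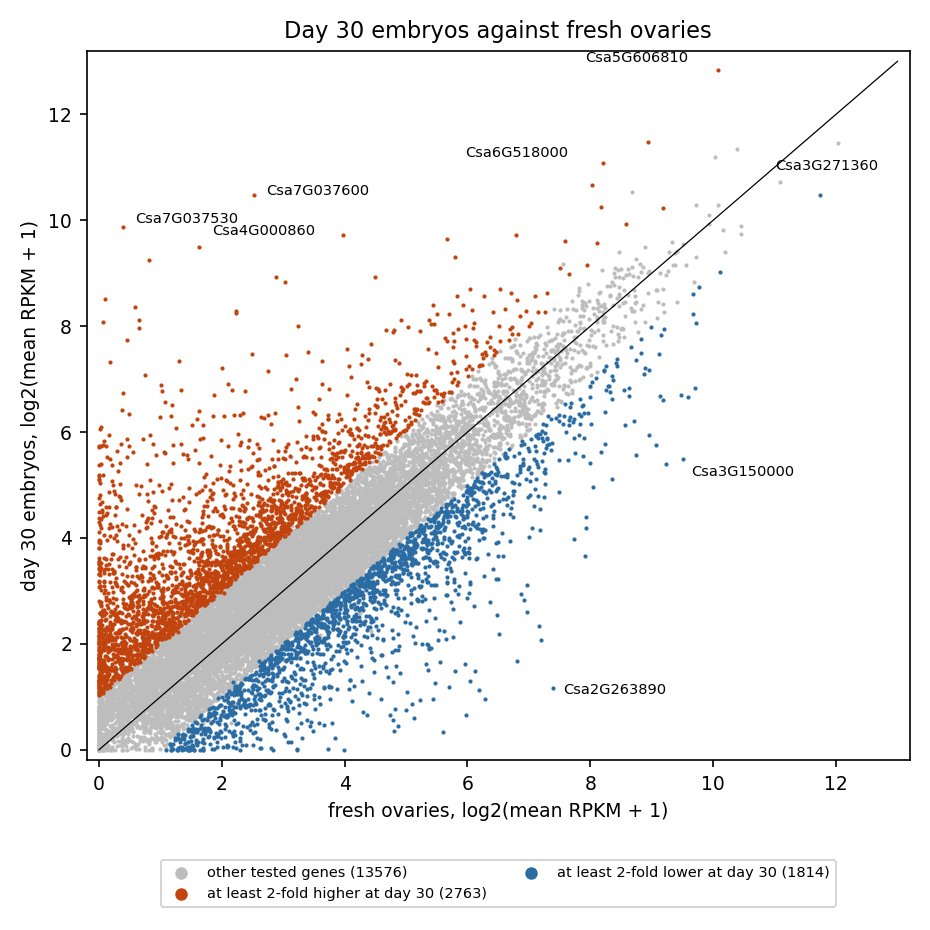
Mean RPKM of each tested gene in day 30 embryos (y axis) against fresh ovaries (x axis), both as log2(mean RPKM + 1), with the line of equal levels. The 2763 genes called at least 2-fold higher at day 30 reach farther from the line than the 1814 called at least 2-fold lower, and Csa5G606810 stands at the top with a mean of 7266 RPKM at day 30 and 1084 in fresh ovaries.

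Genes that changed at least 2-fold made up a large part of the messenger RNA in the group where they were high. The 2763 higher genes held 23.8%, 25.1% and 25.2% of the summed RPKM in the day 30 libraries, and 6.02%, 5.80% and 5.74% in the fresh libraries. The 1814 lower genes held 6.41%, 6.36% and 6.46% at day 30, and 20.4%, 22.4% and 22.3% in fresh ovaries. The direction of both follows from how the lists were made, and the shares give their size. The 10 most abundant genes of a library held 6.38%, 6.48% and 6.49% of the summed RPKM at day 30, against 4.49%, 4.78% and 4.97% in fresh ovaries. The 1000 most abundant genes held 50.9% to 51.6% at day 30 and 49.9% to 51.3% in fresh ovaries, so the groups overlapped there while for the 10 most abundant they did not. Of the 100 most abundant genes of each group, 54 were common to both. Among the 100 most abundant at day 30, 57 had risen, 14 had fallen and 29 passed in neither direction. For the 100 most abundant in fresh ovaries the counts were 14, 57 and 29. Of all tested genes, 35.8% were called higher at day 30 and 26.4% lower. Ranking by day 30 level favours risen genes and ranking by fresh level favours fallen ones, so the choice of genes raises the count of 57 in each list.

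The 10 genes with the largest rises were all among the 382 most abundant genes at day 30, with means of 160 to 1425 RPKM, against 0.0489 to 4.76 RPKM in fresh ovaries. Rises were ranked on log2(RPKM + 1), where only a high day 30 level gives a large rise, so this abundance follows from the ranking. The plain ratio of mean RPKM was larger for Csa7G375850, at 8587, than for Csa4G625060, the highest of the 10 at 5538. Csa7G037530 had 1210, 768 and 833 RPKM in the day 30 libraries, against 0, 0.384 and 0.555 in the fresh ones. Csa5G161900 stood at 445, 690 and 682 RPKM at day 30 and at 0, 0.574 and 1.72 in fresh ovaries. Csa5G155450 gave 286, 383 and 430 RPKM at day 30, where the fresh libraries gave 0, 0.0641 and 0.154. These 3 genes rested on 39556, 60126 and 50929 reads at day 30, against 16, 94 and 12 in the fresh libraries together. Csa4G000860 was at 763, 754 and 643 RPKM at day 30, against 3.88, 0.103 and 2.32 in fresh ovaries, where the libraries differed widely among themselves. Csa4G625060 reached 327, 235 and 251 RPKM at day 30 while 2 fresh libraries listed it at 0 and the other one at 0.147. Csa7G037600 had the highest level of the 10, with 1389, 1523 and 1363 RPKM at day 30 and 5.54, 3.32 and 5.42 in fresh ovaries. It ranked 11th of the tested genes by mean RPKM at day 30. Csa7G037560 varied little in both groups, with 342, 346 and 299 RPKM at day 30, against 0.418, 0.595 and 0.484 in fresh ovaries. The other members of the 10 were Csa2G354910, Csa3G142970 and Csa6G092510, with means of 276, 212 and 160 RPKM at day 30 and 0.571, 0.370 and 0.134 in fresh ovaries.

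The 10 genes were taken from those called without overlap between the groups, so by choice the lowest day 30 library lay above the highest fresh library. The log2 fold changes ran from 7.14 for Csa6G092510 (SE 0.20, adjusted p = 2.19e-13) to 9.48 for Csa7G037530 (SE 0.25, adjusted p = 1.22e-13). Csa7G037560 had the smallest error of the 10, with a change of 7.78 on the log2 scale (SE 0.10, adjusted p = 4.12e-17). The largest error was that of Csa2G354910, with a change of 7.50 on the log2 scale (SE 0.41, adjusted p = 2.68e-10). These genes were picked for their size of change in the same libraries, and their folds describe these libraries.

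**Figure D2:**
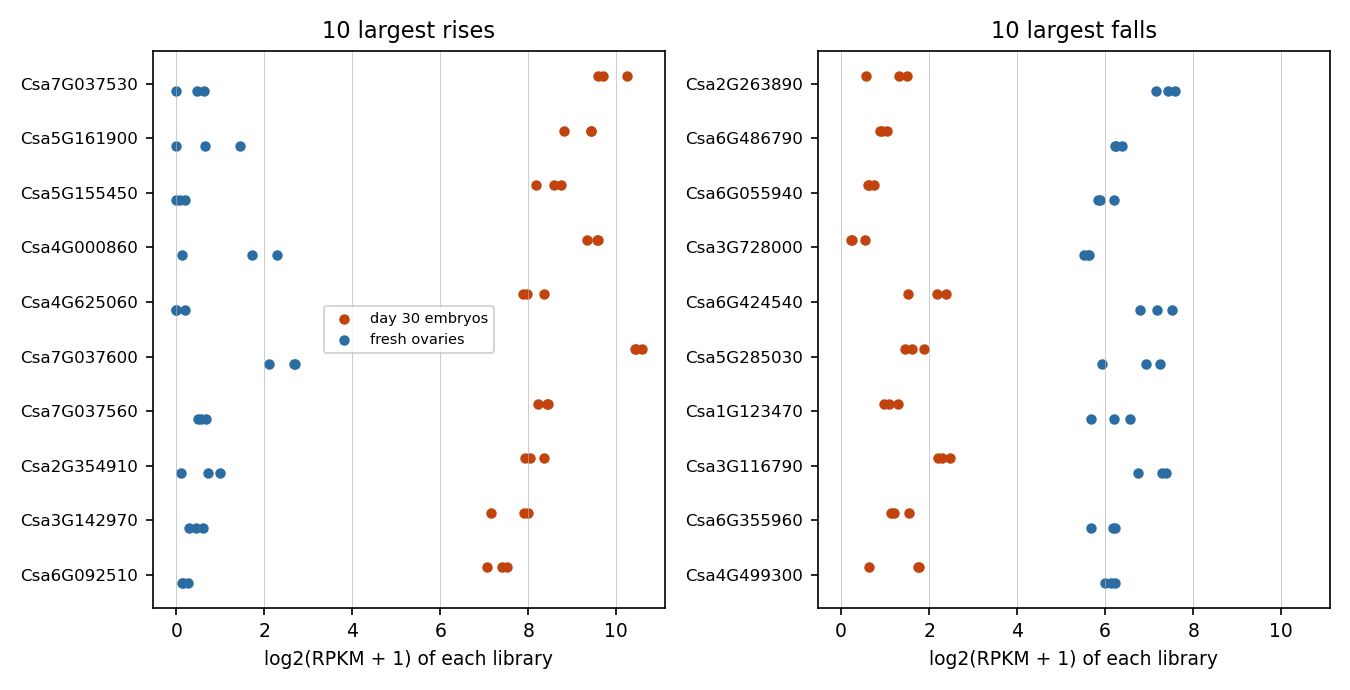
RPKM of each library, as log2(RPKM + 1), for the 10 genes with the largest rise (left) and the 10 with the largest fall (right), day 30 embryos in red above fresh ovaries in blue. In every row the 3 points of a group stand apart from those of the other, as the choice of genes required. Day 30 is at 160 to 1425 mean RPKM on the left and at 0.268 to 4.04 on the right.

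The 10 genes reached their day 30 level along different courses. Csa4G000860 and Csa7G037560 had their highest mean at day 2, at 7471 and 720 RPKM, and were still high at day 30 with 720 and 329. Csa7G037530 was at 0.293 RPKM at day 2, 1353 at day 10, 1298 at day 20 and 937 at day 30. Csa4G625060 followed a like course, with 0.120 RPKM at day 2, 285 at day 10, 433 at day 20 and 271 at day 30. Csa6G092510 and Csa2G354910 came up late, Csa6G092510 with 1.23 RPKM at day 10, 22.7 at day 20 and 160 at day 30, and Csa2G354910 with 16.5, 118 and 276. Csa5G161900 was highest at day 20, with 2903 RPKM. In 5 of the 10 genes the mean was highest at day 30, and in each of the 10 the day 60 mean was below that of day 30. The choice of these genes as high at day 30 favours both, and 16.04% of all tested genes were highest at day 30. At day 60 the means of the 10 genes ran from 10.2 RPKM for Csa4G625060 to 899 for Csa7G037600, all above those of the fresh ovaries.

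On the log2(RPKM + 1) scale the largest falls were smaller than the largest rises and started from moderate levels. Csa2G263890 had 0.487, 1.48 and 1.80 RPKM in the day 30 libraries, against 191, 171 and 141 in the fresh ones, a change of -6.26 on the log2 scale (SE 0.36, adjusted p = 4.55e-10). Csa6G486790 was at 0.856, 0.893 and 1.07 RPKM at day 30 and at 74.7, 73.5 and 82.4 in fresh ovaries. Csa6G055940 gave 0.547, 0.681 and 0.516 RPKM at day 30, where the fresh libraries gave 58.3, 56.0 and 72.0. The replicates of the last pair lay close together in both groups. Csa3G728000 stood at 0.169, 0.455 and 0.180 RPKM at day 30 and at 48.1, 48.8 and 45.2 in fresh ovaries, on 19 and 3600 reads. Csa6G424540 had 1.86, 4.25 and 3.56 RPKM at day 30, against 110, 183 and 144 in fresh ovaries. Csa5G285030 was at 2.72, 2.07 and 1.76 RPKM at day 30, and its fresh libraries, at 120, 152 and 60.2, were the least even of the 10. The other members were Csa1G123470, Csa3G116790, Csa6G355960 and Csa4G499300, with means of 1.19, 4.04, 1.46 and 1.79 RPKM at day 30 and 71.9, 142, 64.6 and 68.5 in fresh ovaries. The groups did not overlap for any of the 10, which the choice of genes required. The smallest of these falls, that of Csa4G499300, was -4.72 on the log2 scale (SE 0.27, adjusted p = 3.97e-10).

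These 10 genes reached their low level at different times, and some passed through a peak first. In 7 of the 10 the mean was highest in fresh ovaries, which their choice as high there favours, against 23.5% of all tested genes. Csa3G728000 was at 1.81 RPKM at day 2, 1.22 at day 10, 0.364 at day 20 and 0.204 at day 60, so it had already dropped at the first culture time and stayed low. Csa6G486790 went a different way, with 2.33 RPKM at day 2, 368 at day 10 and 54.9 at day 20 before the 0.939 of day 30. Csa6G424540 was likewise highest at day 10, with 385 RPKM, and Csa5G285030 at day 2, with 538. At day 60 the 10 means ran from 0.204 RPKM for Csa3G728000 to 15.8 for Csa1G123470, each below its fresh level.

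The 8 most abundant genes of day 30 differed in how they had got there. Csa5G606810 led with 7099, 7896 and 6802 RPKM at day 30, against 1234, 1137 and 882 in fresh ovaries, a change of 2.75 on the log2 scale (SE 0.22, adjusted p = 2.97e-08). It alone held 1.66% to 1.88% of the summed RPKM of a day 30 library, and its means at day 20 and day 60 were 2911 and 1300 RPKM. Csa3G734260 had 2152, 2413 and 4015 RPKM at day 30 and 395, 395 and 673 in fresh ovaries, with replicate 3 highest in both groups. Csa6G518000 was at 2145, 2281 and 2079 RPKM at day 30 and at 327, 290 and 264 in fresh ovaries (log2 fold change 2.88, SE 0.12, adjusted p = 1.77e-11). It was also high at day 10, with 2771 RPKM, and at day 60, with 3582. Csa3G728130 gave 1227, 1473 and 2173 RPKM at day 30 against 283, 213 and 284 in fresh ovaries. These 4 genes had ratios of mean RPKM, day 30 over fresh ovaries, of 6.70, 5.87, 7.38 and 6.24.

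The other 4 of the 8 had smaller differences. Csa3G271360, the most abundant gene of fresh ovaries by its mean, had 2771, 2696 and 2932 RPKM at day 30 and 4214, 3750 and 4591 in fresh ovaries, and fell by 0.58 on the log2 scale (SE 0.10, adjusted p = 0.000121). Csa7G009740 rose by 0.94 on the log2 scale (SE 0.07, adjusted p = 1.61e-08), with 2398, 2669 and 2682 RPKM at day 30 and 1386, 1319 and 1320 in fresh ovaries. Both groups were even for these genes and did not overlap. Csa2G023940 did not pass, at 3121, 2827 and 1066 RPKM at day 30 against 1115, 1651 and 352 in fresh ovaries, with a difference of 1.29 on the log2 scale (SE 0.82, adjusted p = 0.185). Its replicate 3 library was the lowest of each group, and with the replicate number as a block the gene was called higher (adjusted p = 6.31e-05). Csa6G062320 likewise did not pass, at 1305, 1907 and 1843 RPKM at day 30 and 1893, 2357 and 2253 in fresh ovaries, with an adjusted p of 0.216, or 0.0434 with the replicate block. Of the 8 most abundant genes of fresh ovaries, which include 3 of those above, Csa7G398090 changed the most. It had 1341, 1528 and 1428 RPKM at day 30, against 2772, 3786 and 3657 in fresh ovaries, a change of -1.24 on the log2 scale (SE 0.12, adjusted p = 1.46e-07). Csa4G026900, Csa3G822300 and Csa2G307850 fell by 0.56, 0.70 and 0.79 on the log2 scale, with the largest adjusted p at 0.000115. Csa2G139820 fell by 0.35 (adjusted p = 0.0165), a call lost without replicate 2 of day 30 (adjusted p = 0.0507) and without replicate 3 of the fresh ovaries (adjusted p = 0.0801).

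Among abundant genes changed at least 2-fold, the 5 in each direction with the smallest adjusted p added 6 genes to those above. On the rising side, 4 of the 5 were described above, and the fifth, Csa5G158580, had 125, 126 and 106 RPKM at day 30 against 3.17, 3.66 and 3.04 in fresh ovaries (log2 fold change 4.80, SE 0.12, adjusted p = 4.87e-14). On the falling side, Csa3G150000 stood out by its level, as number 26 of the tested genes by mean RPKM in fresh ovaries and number 1773 at day 30. It had 39.0, 48.1 and 44.3 RPKM at day 30, against 541, 822 and 811 in fresh ovaries, a change of -4.00 on the log2 scale (SE 0.13, adjusted p = 1.38e-12). Csa2G008110 was at 5.77, 6.36 and 6.08 RPKM at day 30 and at 94.3, 134 and 131 in fresh ovaries. Csa1G338930 gave 8.95, 6.92 and 7.10 RPKM at day 30 and 99.1, 139 and 135 in fresh ovaries. Part of the level of this pair was present again at day 60, with means of 33.6 and 66.4 RPKM. Csa2G372780 and Csa2G094900 had means of 6.68 and 14.8 RPKM at day 30, against 117 and 212 in fresh ovaries, and stood at 5.28 and 14.5 at day 60.

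Some genes were present in 1 group and close to 0 in the other. Taking 1 RPKM or more in every library of a group and under 0.1 in every library of the other, 166 genes were on at day 30 and near 0 in fresh ovaries, and 34 were on in fresh ovaries and near 0 at day 30. All of them lay past the threshold of the test, which the rule nearly fixes. Levels were low as a rule, with a median of 3.64 RPKM at day 30 for the 166 genes and of 2.41 RPKM in fresh ovaries for the 34. Csa7G375850 had 51.0, 69.3 and 77.7 RPKM at day 30, on 25351 reads, and 0.0119, 0 and 0.0112 in fresh ovaries, on 3 reads. Pooled over libraries the ratio was 8138, with a 95% exact (Clopper-Pearson) interval of 2784 to 39464 that covers counting error only. Csa4G017200 was at 85.7, 68.3 and 49.1 RPKM at day 30 and at 0.0355, 0.0348 and 0 in fresh ovaries, on 2 reads. Csa3G027200 gave 37.4, 54.2 and 65.1 RPKM at day 30 and 0 reads in the fresh libraries. With 3 reads over the group as the most that a count of 0 allows, it was at least 1259.9-fold higher at day 30. Csa6G008840 had 67.5, 48.1 and 39.0 RPKM at day 30 and also 0 reads in fresh ovaries, so it was at least 932.8-fold higher at day 30. Csa1G000730 was at 33.7, 59.9 and 63.2 RPKM at day 30, on 4316 reads, against 2 reads in fresh ovaries.

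In the other direction, Csa7G019880 had 0 reads at day 30 and 14.9, 20.6 and 9.10 RPKM in fresh ovaries, at least 130.8-fold lower at day 30. Csa3G017100, also at 0 reads at day 30, had 6.78, 7.75 and 3.95 RPKM in fresh ovaries and was at least 69.57-fold lower at day 30. Both are short in the authors' gene models, with recovered lengths of 231 and 294 bases, and rest on 378 and 201 reads in fresh ovaries. Csa6G083540 was covered more deeply, with 1 read at day 30 and 2032 reads in fresh ovaries, where it stood at 8.17, 9.64 and 7.19 RPKM. Its mean was 0.0674 RPKM at day 2, 0.00281 at day 10, 0.0297 at day 20 and 0.00223 at day 60, so it was near 0 at every later time. Csa6G502630 and Csa2G359950 had 2 reads and 1 read at day 30, against means of 12.3 and 8.34 RPKM in fresh ovaries.

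Both lists differed in what they did at the other times. Of the 166 genes on at day 30, the mean was at least 1 RPKM for 51 genes at day 2, 94 at day 10, 104 at day 20 and 64 at day 60. Some were far higher before or after day 30, as Csa6G085120 with 594 RPKM at day 10 and Csa1G568500 with 208 at day 60. Of the 34 genes on in fresh ovaries, 5 had a mean of at least 1 RPKM at day 2, 5 at day 10, 5 at day 20 and 0 at day 60. These were not the same 5 genes, and 1 gene, Csa7G375820, reached that level at all 3 of the earlier times. Its means were 2.61 RPKM at day 2, 6.17 at day 10 and 15.5 at day 20, above the 1.45 of fresh ovaries. Csa3G017100 was also higher at day 2, with 10.4 RPKM, than in fresh ovaries, with 6.16. The highest day 60 mean of the 34 was 0.553 RPKM, that of Csa2G008120. Csa6G085120, Csa1G568500, Csa7G375820 and Csa2G008120 were chosen after their values were seen, as the highest of their list at a time.

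**Figure D3:**
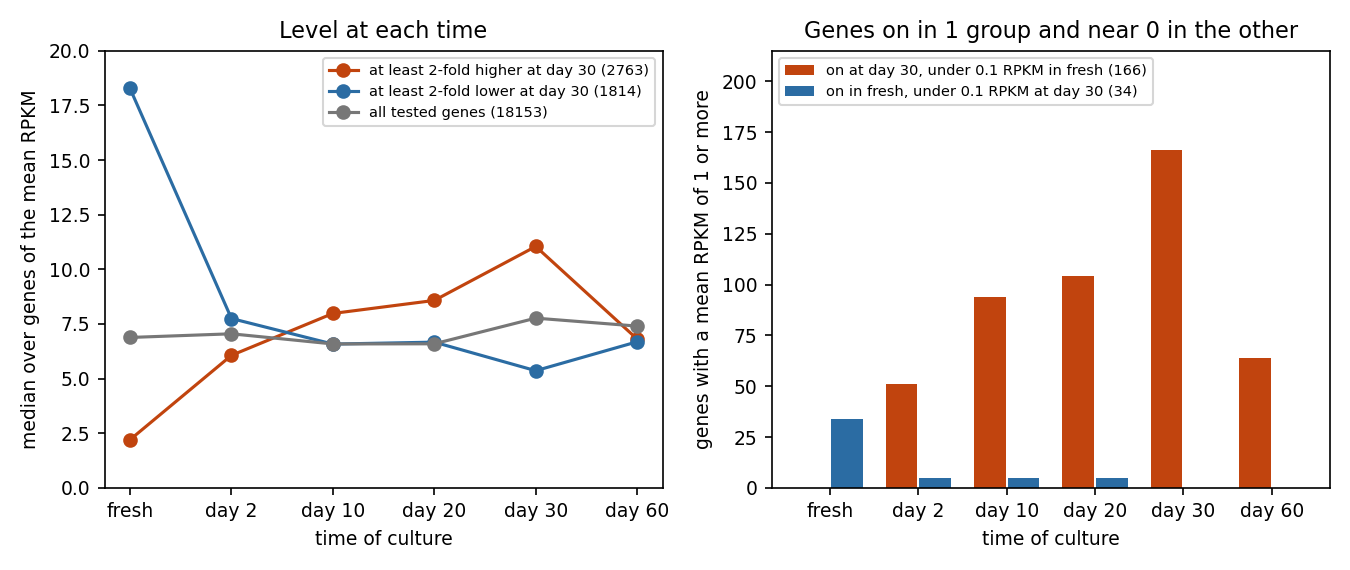
Left, the median over genes of the mean RPKM at each time, for genes at least 2-fold higher at day 30, at least 2-fold lower, and all tested genes, and right, the number of genes with a mean of at least 1 RPKM at each time among the 166 on at day 30 and the 34 on in fresh ovaries. The lists were chosen on day 30 and fresh levels, so those times differ by construction, and at day 60 the medians of 6.81 and 6.68 RPKM lie close to each other and below the 7.40 of all tested genes.

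The genes at least 2-fold higher at day 30 had a median level that rose at each time up to day 30. Their median level was 2.20 RPKM in fresh ovaries, 6.06 at day 2, 7.98 at day 10, 8.58 at day 20, 11.04 at day 30 and 6.81 at day 60. Over all tested genes the medians at the same times were 6.88, 7.05, 6.58, 6.59, 7.76 and 7.40 RPKM. The choice of the list as low in fresh ovaries and high at day 30 raises the first step, the step into day 30 and the drop after it. The medians describe the list and not the course of each gene. Of these 2763 genes, 1170 had their highest mean at day 30, which is 42.3%, while 16.04% of all tested genes did. Being chosen as higher at day 30 than in fresh ovaries raises this share, and by that choice 0 genes were highest in fresh ovaries. The highest mean of 393 fell at day 2, of 434 at day 10, of 423 at day 20 and of 343 at day 60. These are 14.2%, 15.7%, 15.3% and 12.4% of the list, against 18.7%, 10.8%, 10.2% and 20.9% of all tested genes. Genes that were at least 2-fold lower at day 30 dropped mainly between fresh ovaries and day 2 in their median, which was 18.3 RPKM in fresh ovaries, 7.75 at day 2, 6.58 at day 10, 6.67 at day 20, 5.36 at day 30 and 6.68 at day 60. Of these 1814 genes, 1394 had their highest mean in fresh ovaries, which is 76.8%, against 23.5% of all tested genes. The choice of these genes as high in fresh ovaries raises that share, and also the drop from fresh ovaries to day 2. Their lowest mean was spread over the culture, with 281 genes at day 2, 407 at day 10, 293 at day 20, 438 at day 30 and 395 at day 60.

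A comparison of late with early culture, day 60 embryos with day 2 ovules, shares no library with day 30 and fresh ovaries. Its spread for each gene comes from the same fit, so genes are not called independently here. In that comparison 33.5% of all tested genes were higher and 27.9% lower at day 60, together 61.4%. Of the 2763 genes at least 2-fold higher at day 30 than in fresh ovaries, 39.7% were higher and 29.4% lower at day 60 than at day 2. Of the 1814 genes at least 2-fold lower at day 30, 28.3% were higher and 36.5% lower at day 60. Without the 2-fold limit, the 6503 higher genes gave 36.6% and 28.9%, and the 4797 lower genes 31.6% and 32.0%. These shares lie near those of all tested genes. The genes 2-fold higher at day 30 exceeded the background on the higher side, and those 2-fold lower exceeded it on the lower side. The 2-fold higher genes also exceeded it slightly on the lower side, at 29.4% against 27.9%, as did all 6503 higher genes at 28.9%. No test was made of any of these differences.

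Some abundant genes stood at near-equal levels in both groups. By the rule that the 95% interval of the log2 fold change lies within -0.32 and 0.32, the 5 most abundant were Csa6G495670, Csa1G422990, Csa4G663680, Csa3G117430 and Csa4G110050. Csa4G663680 had 659, 680 and 652 RPKM at day 30 and 684, 676 and 629 in fresh ovaries, with an interval of -0.15 to 0.16. Csa6G495670 stood at 801, 741 and 701 RPKM at day 30 and at 779, 730 and 677 in fresh ovaries, with an interval of -0.22 to 0.29. Both groups overlapped for these genes, and equal levels at these times say nothing of the times between. Csa1G422990, at 777, 673 and 588 RPKM at day 30 and 661, 727 and 645 in fresh ovaries, had means of 303 RPKM at day 2 and 2549 at day 20. Csa4G663680 had a mean of 1109 RPKM at day 60. Under median-ratio scaling the log2 fold changes of Csa6G495670, Csa4G663680, Csa3G117430 and Csa4G110050 turned from just above to just below 0, with none called, and that of Csa4G663680 also did so under upper quartile scaling.

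Several of the largest rises had neighbouring IDs. Csa7G037530, Csa7G037560 and Csa7G037600 all lie within a stretch of a few ID numbers, so the genes around them were taken in ID order, which was done after these values were seen. Between them Csa7G037590 had 114, 141 and 494 RPKM at day 30 and 1.16, 0.347 and 0.213 in fresh ovaries, a log2 fold change of 7.04 with a wide error (SE 0.99, adjusted p = 1.44e-05). Csa7G037610 had 0.243, 1.28 and 0.9902 RPKM at day 30, against 0, 0 and 0.0220 in fresh ovaries, and 73.9 at day 10. The genes directly next to this stretch on either side were not called higher. Csa7G037520 fell, with 6.09, 6.52 and 6.71 RPKM at day 30 and 25.6, 24.3 and 23.9 in fresh ovaries (log2 fold change -1.78, SE 0.14, adjusted p = 1.55e-08). Csa7G037620 did not pass, with 0.926, 0.267 and 0.343 RPKM at day 30 and 0.759, 0.680 and 0.775 in fresh ovaries. The next genes out, Csa7G037510 and Csa7G037630, were called higher. Their log2 fold changes were 0.76 (SE 0.14, adjusted p = 0.000255) and 0.75 (SE 0.11, adjusted p = 2.83e-05). Farther out, Csa7G037500 and Csa7G037640 did not pass. Over all tested genes 35.8% were called higher. Within the stretch the order of times differed from gene to gene, since Csa7G037560 was highest at day 2, Csa7G037530 and Csa7G037610 at day 10, and Csa7G037590 and Csa7G037600 at day 30. Whether these genes are near-identical copies that share reads was not tested, since no sequence was used here. Csa7G037540, also within the stretch, did not pass, with 0, 0.407 and 0.334 RPKM at day 30 and 0 in each fresh library. Csa7G037550, Csa7G037570 and Csa7G037580, within it too, were not tested and had means of 0.109, 0 and 0.111 RPKM at day 30.

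**Figure D4:**
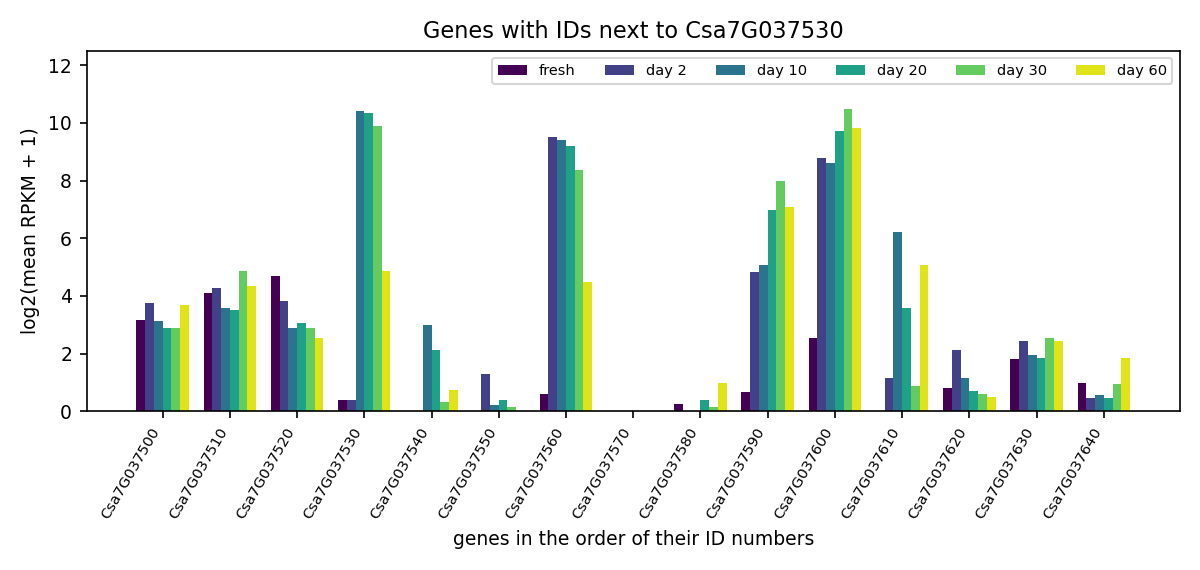
Mean RPKM at each of the 6 times, as log2(mean RPKM + 1), for 15 genes with consecutive IDs from Csa7G037500 to Csa7G037640. Csa7G037530, Csa7G037560, Csa7G037590 and Csa7G037600 stand at 249.5 to 1425 RPKM at day 30, against 0.313 to 4.76 in fresh ovaries, while Csa7G037610 reaches 73.9 at day 10.

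By a rule on ID order, runs of at least 4 consecutive tested genes that changed at least 2-fold in the same direction were listed. They numbered 41 for rises, with 183 of the 2763 higher genes, and 12 for falls, with 49 of the 1814 lower genes. Over all tested genes 15.2% were at least 2-fold higher and 9.99% at least 2-fold lower, so more runs of rises can form. Whether the runs exceed what these shares give was not tested. The longest runs of rises had 6 genes and there were 6 of them, of which the first in ID order are described. Csa1G600130 to Csa1G600180 rose together by modest amounts, with log2 fold changes from 1.03 (SE 0.22) to 1.70 (SE 0.13). Their levels ranged from 1.25 to 21.7 RPKM at day 30 and from 0.101 to 5.97 in fresh ovaries, and 4 of the 6 had their highest mean at day 60. The run from Csa3G026150 to Csa3G027720 held genes of very different level, among them Csa3G027200, described above with 0 reads in the fresh libraries. Csa3G026160 averaged 238 RPKM at day 30 and 36.4 in fresh ovaries. Csa3G027210 had 220, 311 and 338 RPKM at day 30 and 87.9, 132 and 126 in fresh ovaries. Replicate 1 was the lowest library in each group for this gene. The one run of 5 falls, Csa4G008250 to Csa4G008780, had log2 fold changes from -1.67 to -2.41. In 4 of its 5 genes replicate 3 was the highest library of each group, as in Csa4G008780, with 11.2, 14.1 and 18.6 RPKM at day 30 and 44.8, 70.6 and 101 in fresh ovaries. Of the runs of 4 falls, the first in ID order was Csa1G046050 to Csa1G046080. Within it Csa1G046070 fell by 1.30 on the log2 scale (adjusted p = 0.0101), a call lost without replicate 2 of day 30 (adjusted p = 0.0666) and without replicate 3 of the fresh ovaries (adjusted p = 0.0557). The share of genes changed at least 2-fold hardly differed with the first part of the ID, from 14.3% to 16.4% higher and from 9.23% to 11.2% lower over the 7 numbered prefixes.

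Genes changed at least 2-fold were shorter than the rest. The recovered length had a median of 2134 bases for the higher genes and 2059 bases for the lower genes, against 2867 bases over all tested genes. The upper quartiles were 3550, 3651 and 4621 bases. The labels do not say whether these lengths include introns. Calls of at least 2-fold were more frequent in abundant genes, at least among rises. Genes with a mean of at least 100 RPKM over the 18 libraries were at least 2-fold higher in 21.8% and at least 2-fold lower in 12.4% of 725 genes. Of the 1202 genes with a mean under 1 RPKM, 10.4% were higher and 10.2% lower by at least 2-fold, with a median of 253 reads over the 6 libraries behind each gene. The median SE of the log2 fold change was 0.13 in the most abundant class and 0.20 in these low genes. The 1 RPKM added before taking logs shrinks the folds of low genes, so their fewer 2-fold calls are partly built in. With 0.1 RPKM added, 3644 genes were at least 2-fold higher at day 30 and 2130 lower, against 2763 and 1814.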

How the data were processed

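The authors deposited RPKM values, 1 column per library, per the file headers. The submitters' processing notes name TopHat2, TopHat and HTSeq version 0.6.1p2, while settings, genome build, annotation and strand use are not given in the labels. Poly(A) RNA was sequenced, and the protocol text speaks of an adipose type, a term that matches no sample here. The fresh ovary file holds its 3 library names in 1 header cell, and its columns were taken in that order.

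A single model in limma 3.58.1 (R 4.3.3) held a mean for each of the 6 times over the 18 libraries. It used log2(RPKM + 1) and robust, trended variances. Fold changes are on that scale, which understates changes of low genes. RPKM makes no allowance for altered RNA composition.

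Reads, lengths and library totals were recovered from RPKM steps, since each value is reads divided by length and total. The length of a gene was taken as the shortest that put its reads within 0.02 of whole numbers. Such a length was found for all 21761 genes above 0, so this closeness is the rule of the search and no check of it. No molecular identifiers were reported, so read-based intervals cover counting error only. The recovery and the test were tried on simulated data. Python 3.11.15 was used with pandas 2.3.3 and numpy 2.4.6 for tables, matplotlib 3.10.9 for plots and scipy 1.17.1 for intervals.

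Named genes are the 10 largest rises and falls without overlap, the 8 most abundant of each group, the 5 highest on in 1 group and near 0 in the other, 5 steady abundant genes, the longest 2 runs each way, and the 5 smallest adjusted p each way among genes at 100 RPKM or more. Members and lists were chosen with earlier results of these data known. An exact permutation test of 3 against 3 cannot go below 0.1, so single genes were tested in the fit across genes. Planned gene lists and tissue markers were not run, since 0 of 23248 IDs matched a name.

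Deviations from the group means of same-numbered libraries correlated at 0.226, 0.202 and 0.515, and those of differently numbered ones at -0.327 to 0.129. A fit that pairs the libraries by replicate number, as a block, was therefore run as an alternative, while the main fit has no block. The deviations of a group sum to 0 for each gene, so positive values for same-numbered libraries force negative ones among the others. Replicate 3 was also the deepest library at every time, and whether depth plays a part in these correlations was not tested. The pairing comes from the data and from no label.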

Additional observations from a re-analysis of the deposited data

How the results depend on the processing

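Of 185 alternatives of the counts, 182 stayed within 1.5 times. The other 3 came from testing against a 2-fold change, which gave 2321 changed genes, 1504 higher and 817 lower, fewer by construction. Leaving out 1 library gave 10384 to 10605 changed genes, where the spread of the pair left is taken from all times. The count was 12681 with the replicate block, which pairs the libraries by number, and 11889 with the 6 libraries alone. It was 12317 without replicate 1 of day 10 and day 20, an alternative chosen after seeing the data. Voom on the recovered reads gave 11557. Of the named genes, 1385 of 1405 alternatives kept their direction and side of the threshold, which the choice of large changes nearly fixes. Calls of Csa2G139820 and Csa1G046070 were lost without 1 library, and the block added those of Csa2G023940 and Csa6G062320 and changed no other named call. Csa6G062320 was also called without replicate 1 of day 10 and day 20 (adjusted p = 0.0344). Only genes near 0 turned sign, none of them called. Under median-ratio scaling Csa6G495670 was at -0.082, Csa4G663680 at -0.12, Csa3G117430 at -0.038 and Csa4G110050 at -0.039, and under upper quartile scaling Csa4G663680 was at -0.0072. Without 1 library Csa6G495670 ran from -0.0142 to 0.0865, Csa4G663680 from -0.0354 to 0.0250 and Csa1G422990 from -0.106 to 0.0954. The causes were not tested. Depth limits low genes.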
